A study of Schizophyllum commune with 14 samples.

Results

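A group of 31 transcript models of the split gill mushroom Schizophyllum commune stood at a like level in the mycelium and in the first primordia and at a lower level in every later stage of fruiting. They were chosen from the 14681 models of the deposited log2 RPKM table (RPKM is reads scaled to transcript length and library size). The means of vegetative mycelium and stage 1 primordium had to be at least 2 and less than 1.5 apart, and both at least 1 above each late mean, the late stages being stage 2 primordium, the young fruiting body and the fruiting body. Of 7829 models that met the conditions on level and likeness in the early stages, 31 met the last one. These levels chose the genes, so the differences between the early and the late stages are given as a description, with no test.

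The libraries came from purified mRNA of an H4-8 dikaryon, made by mating the H4-8a and H4-8b monokaryons, so all groups share 1 strain. Vegetative mycelium had 3 libraries and stage 1 primordium, with initials up to 2 mm high, had 3. Stage 2 primordium, 3 to 4 mm tall with a pit at the tip, had 2, numbered 2 and 3. Young fruiting body, a cup of 5 to 7 mm, and the fully expanded fruiting body had 3 each. Cultures were kept dark for 5 days at 30 °C, followed by 10 days at 25 °C under light for 12 hours daily. The series describes the libraries as biological replicates. Each sample was whole tissue, so fewer cells of a type and less RNA per cell cannot be told apart.

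In mushroom-forming fungi the vegetative mycelium explores and digests the substrate, and fruiting begins when hyphae aggregate into small knots that develop into primordia. Later stages build specialised tissues, with the gill-like folds of the split gill carrying the spore-forming layer. A primordium in its first stage is still a mass of hyphae with little visible tissue differentiation. 

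The files and the gene reference pair none of the 31 models with a gene symbol or a product, so they are called by their model numbers and no function is given. A RefSeq locus tag of assembly Schco3 could be matched to 30 of them. Of 24 named genes looked up, 17 were found in the table and 0 were members. Members were 31 of all 14681 models, so nothing is read from the 0. Among the 17 were 5 hydrophobins, 6 developmental regulators and 3 mating type B genes, besides CFS2, EGC1 and Lcc2. The largest gap among them was that of Gat1, a GATA-type zinc finger regulator, with stage means of 7.48, 5.78, 4.95, 4.94 and 4.70 log2 RPKM from mycelium to fruiting body. Its early means were more than 1.5 apart and its gap was 0.83, where the gap is the lower of the 2 early means minus the highest of the 3 late means.

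Library sizes ran from 13708387 to 24052213 unique reads. Per the labels, 1 flow cell carried the 3 libraries of mycelium and a second one the other 11, so stage 1 primordium and the late stages share a flow cell, while mycelium and the rest cannot be told apart from flow cell. Stage 2 primordium replicate 2 had the lowest scaling factor by TMM (trimmed mean of M values), 0.55, against 0.86 to 1.21 in the others. If the TruSeq libraries did not mark strand, reads of a transcript running against a member would be counted with it.

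Early in development the members were abundant. Their median stage mean was 5.58 log2 RPKM in mycelium and 5.21 in stage 1 primordium, against 3.47 and 3.58 over all 14681 models. For stage 2 primordium it was 2.40, for young fruiting body 3.87 and for fruiting body 2.28, against 3.57, 3.66 and 3.68 over all models. Against all models the members thus stood higher in the early stages and, except in young fruiting body, lower afterwards. The rule set a floor of 2 on both early means and a limit on the late ones, so both directions partly follow from the choice. The 7829 models that met the early conditions are a closer comparison. Their median was 4.71 in stage 1 primordium and 4.69 in young fruiting body. Against these models the members' median was higher in both early stages and lower in each of the 3 late stages, young fruiting body included. The mean of the 3 late stages was lower than that of the 2 early stages by 1.33 to 4.90 on the log2 scale, with a median difference of -2.14. In linear RPKM the late libraries averaged 5.91% to 39.6% of the early ones, with a median of 26.6%.

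**Figure D1:**
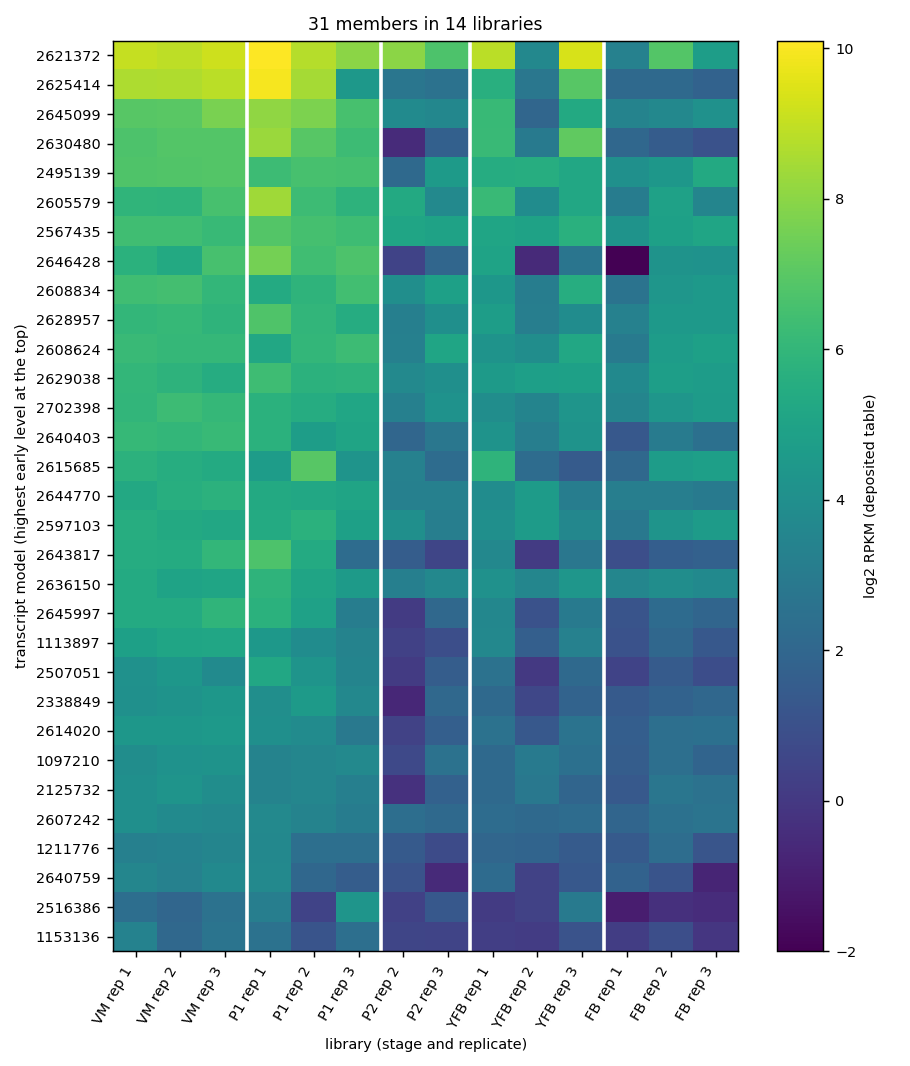
Log2 RPKM of the 31 members (rows, highest early level at the top) in each of the 14 libraries (columns, grouped by stage with white lines between stages). VM is vegetative mycelium, P1 and P2 are stage 1 and stage 2 primordium, YFB is young fruiting body and FB is fruiting body. Colours are brightest in the 6 libraries of VM and P1, and young fruiting body replicates 1 and 3 are brighter than replicate 2 in many rows.

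The word lost, used as a working name for this pattern, goes further than the data do. No member was without reads in any late library, and all 3 late means were under 2 log2 RPKM, that is under 4 RPKM, in 6 of the 31. At least 1 late mean was under 2 log2 RPKM in 14 members. The pattern is one of genes lowered but still read in the fruiting body, and they are called the early-high genes here.

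The 31 spanned a wide range. Model 2621372 (SCHCODRAFT_02621085) had the highest early level and kept a high level in parts of the late stages. Its level was 9.02, 8.88 and 9.18 log2 RPKM in vegetative mycelium and 10.07, 8.76 and 8.01 in stage 1 primordium. Stage 2 primordia then had 8.02 and 6.74, young fruiting bodies 8.85, 3.63 and 9.35 and fruiting bodies 3.30, 6.85 and 4.76. Replicate 2 of stage 2 primordium and replicates 1 and 3 of young fruiting body reached the level of the lowest early library, so the early and late libraries overlap in this gene. Young fruiting body replicate 2 and fruiting body replicate 1 were the lowest. The lowest members were model 1153136 (SCHCODRAFT_01153136), at 2.72 ± 0.65 in mycelium and 2.05 ± 0.78 in stage 1 primordium, and model 2516386 (SCHCODRAFT_02516099), at 2.30 ± 0.29 and 2.65 ± 1.98 (mean ± SD of log2 RPKM, n = 3 each). The stage 1 level of model 2516386 ran from 0.46 to 4.30.

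Model 2646428 (SCHCODRAFT_02646141) had the largest gap, 3.50. Its level was 5.73, 5.36 and 6.59 log2 RPKM in vegetative mycelium and 7.57, 6.39 and 6.70 in stage 1 primordium. Stage 2 primordia then had 0.44 and 1.99, young fruiting bodies 5.02, -0.56 and 2.72 and fruiting bodies -1.96, 4.22 and 4.16. All 8 late libraries lay below all 6 early ones, but the late libraries spread widely. Fruiting body replicate 1 was at -1.96, with 2 unique reads, while replicates 2 and 3 were above 4. In the gene order of the reference this model stands next to Lcc2, a laccase gene, which had stage means of 1.84, 2.22, 0.91, 1.22 and 1.89 log2 RPKM from mycelium to fruiting body.

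Model 2645099 (SCHCODRAFT_02644812) came next, with a gap of 2.72 and a high level. The vegetative mycelium libraries held model 2645099 at 6.98, 7.02 and 7.69 log2 RPKM and the stage 1 primordia at 8.11, 7.74 and 6.56. Stage 2 primordia were at 3.79 and 3.58, young fruiting bodies at 6.17, 2.00 and 5.34 and fruiting bodies at 3.43, 3.65 and 4.13. Young fruiting body replicate 2 was the lowest library and replicate 1 the highest of the late ones, and no late library reached an early one. Over the late libraries it averaged 13.1% of its early RPKM.

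Model 2625414 (SCHCODRAFT_02625127) showed the largest difference between the late and the early means, -4.90. Mycelium gave 8.61, 8.66 and 8.85 log2 RPKM for model 2625414 and stage 1 primordium 9.95, 8.46 and 4.47, while stage 2 primordium gave 2.74 and 2.54. Young fruiting body gave 5.63, 2.82 and 6.97 and fruiting body 2.13, 2.12 and 1.79. Stage 1 primordium replicate 3 was far below its fellows and below young fruiting body replicates 1 and 3, so the libraries overlap. Mycelium, both stage 2 libraries and the 3 fruiting bodies varied little. The late libraries averaged 5.91% of its early RPKM, the lowest share among the members.

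Model 2643817 (SCHCODRAFT_02643530), with a gap of 2.61, had the same low library in stage 1 primordium. Its level was 5.50, 5.44 and 6.0 log2 RPKM in vegetative mycelium and 6.74, 5.37 and 2.30 in stage 1 primordium. Stage 2 primordia then had 1.55 and 0.52, young fruiting bodies 3.67, 0.12 and 2.79 and fruiting bodies 0.92, 1.63 and 1.74. Replicate 3 of stage 1 primordium lay within the range of the young fruiting bodies. Model 2645997 (SCHCODRAFT_02645710), with a gap of 2.07, was also lowest in replicate 3 among the stage 1 primordia. Mycelium gave 5.41, 5.41 and 5.91 log2 RPKM for model 2645997 and stage 1 primordium 5.74, 4.91 and 3.15, while stage 2 primordium gave 0.11 and 2.11. Young fruiting body gave 3.61, 1.04 and 2.95 and fruiting body 1.16, 2.23 and 1.93. Young fruiting body replicate 1 was above that stage 1 library, so the early and late libraries overlap.

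In models 2507051 (SCHCODRAFT_02506764), 2338849 (SCHCODRAFT_02338562) and 2628957 (SCHCODRAFT_02628670) every late library was below every early library. The vegetative mycelium libraries held model 2507051 at 4.10, 4.38 and 3.78 log2 RPKM and the stage 1 primordia at 5.27, 4.27 and 3.45. Stage 2 primordia were at 0.09 and 1.57, young fruiting bodies at 2.57, 0.03 and 2.13 and fruiting bodies at 0.44, 1.47 and 0.87. For model 2338849 the early libraries ran from 3.65 to 4.59, and stage 2 primordium replicate 2, with 3 unique reads, was at -0.65 while replicate 3 was at 2.09. Model 2628957 was even in mycelium and spread more in the other stages, at 5.98 ± 0.12 in mycelium and 6.07 ± 0.64 in stage 1 primordium, then 3.64 ± 0.55 for stage 2 primordium (n = 2), 3.92 ± 0.79 for young fruiting body and 4.10 ± 0.66 for fruiting body (mean ± SD of log2 RPKM, n = 3 elsewhere). The late libraries of model 2338849 other than that one lay between 0.59 and 2.13. These 3, with models 2646428 and 2645099, were the 5 members that met the rule whichever of the 14 libraries was left out.

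**Figure D2:**
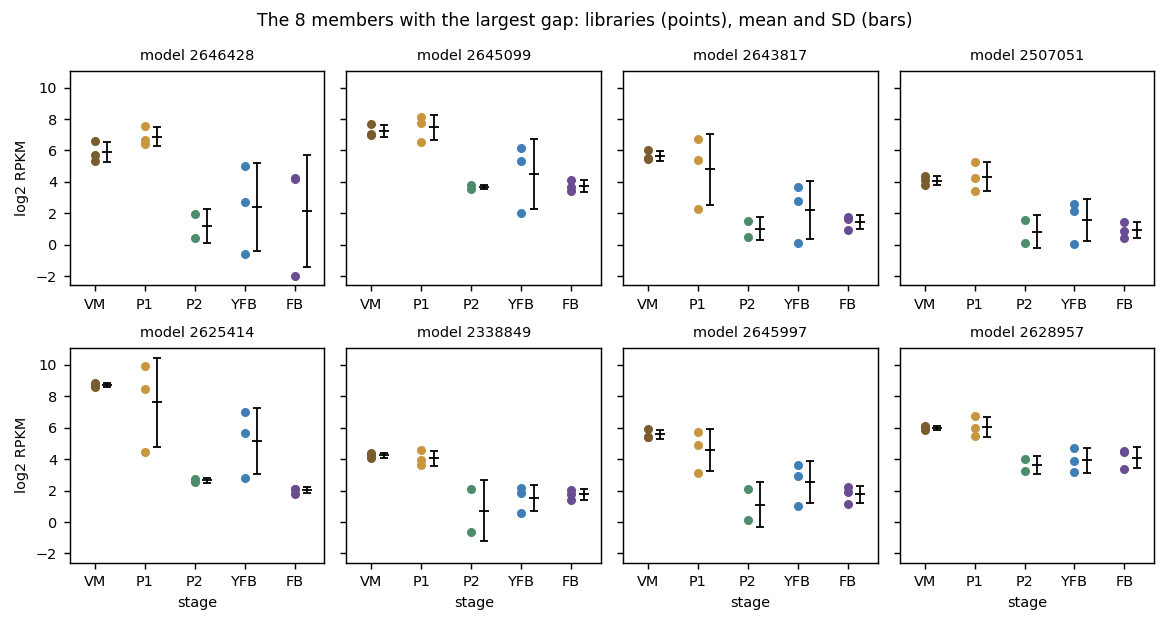
Log2 RPKM by stage for the 8 members with the largest gap between the lower early mean and the highest late mean. Points are libraries, and the bars beside them give the mean and SD of each stage. Stage 1 primordium spreads widely in models 2643817 and 2625414, and fruiting body in model 2646428.

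Other abundant members had smaller gaps. Model 2630480, which matched no locus tag, was low in stage 2 primordium and in fruiting body and high in young fruiting body. Mycelium gave 6.74, 6.86 and 6.85 log2 RPKM for model 2630480 and stage 1 primordium 8.30, 6.97 and 6.29, while stage 2 primordium gave -0.52 and 1.69. Young fruiting body gave 6.20, 2.98 and 7.15 and fruiting body 2.02, 1.52 and 1.04. Replicate 3 of young fruiting body was above 5 of the 6 early libraries and replicate 2 was far lower. Models 2495139 (SCHCODRAFT_02494852) and 2567435 (SCHCODRAFT_02567148) were even in the early stages, at 6.81 ± 0.06 and 6.30 ± 0.13 in mycelium and 6.45 ± 0.15 and 6.57 ± 0.26 in stage 1 primordium (mean ± SD, n = 3). Model 2495139 was then at 2.12 and 4.57 in stage 2 primordium and 5.49, 5.55 and 5.27 in young fruiting body. Replicate 2 of young fruiting body was its highest late library, as in 5 of the 31 members, and all late libraries lay below the early ones. The vegetative mycelium libraries held model 2567435 at 6.39, 6.37 and 6.15 log2 RPKM and the stage 1 primordia at 6.85, 6.52 and 6.35. Stage 2 primordia were at 5.11 and 4.98, young fruiting bodies at 5.12, 4.99 and 5.68 and fruiting bodies at 4.21, 4.90 and 5.12. Its late libraries lay close together and below all early ones.

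The 14 remaining members had gaps of 1.02 to 1.47, late minus early differences of -2.78 to -1.33 and early levels of 2.99 to 6.10 log2 RPKM. Model 2607242 (SCHCODRAFT_02606955) had the smallest difference and model 2640403 (SCHCODRAFT_02640116) the largest of these. In models 2608834 (SCHCODRAFT_02608547) and 2608624 (SCHCODRAFT_02608337) stage 1 primordium replicate 1 was the lowest of its stage, at 5.40 and 5.26, as in 4 of the 31 members. Model 2615685 (SCHCODRAFT_02615398) was uneven in both phases. Mycelium gave 5.77, 5.56 and 5.39 log2 RPKM for model 2615685 and stage 1 primordium 4.70, 6.95 and 4.24, while stage 2 primordium gave 3.32 and 2.29. Young fruiting body gave 5.86, 2.27 and 1.46 and fruiting body 2.08, 4.68 and 4.85. Replicate 1 of young fruiting body was above all 3 mycelium libraries, and fruiting body replicates 2 and 3 were above stage 1 primordium replicate 3, so the libraries overlap. These were named as extremes after their values were seen.

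The level of model 2605579 was 5.91, 5.86 and 6.56 log2 RPKM in vegetative mycelium and 8.39, 6.30 and 5.81 in stage 1 primordium. Stage 2 primordia then had 5.37 and 3.69, young fruiting bodies 6.18, 3.86 and 5.25 and fruiting bodies 3.09, 4.92 and 3.51. Its highest late library, young fruiting body replicate 1, was above the lowest early ones, so they overlap. Inside the threshold, model 2605579 (SCHCODRAFT_02605292) had a gap of 1.008, model 2629038 (SCHCODRAFT_02628751) 1.013 and model 2495139 1.018. Just outside, with near-equal values, model 2628512 had 0.998, model 2646040 (SCHCODRAFT_02645753) 0.987 and model 2669019 (SCHCODRAFT_02668732) 0.982. Model 2628512 was more abundant than any member, with early means of 10.40 and 10.33 and late means of 8.37, 9.33 and 7.94. A gap of at least 1.5 was reached by 10 members, of at least 2 by 7 and of at least 3 by 1.

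**Figure D3:**
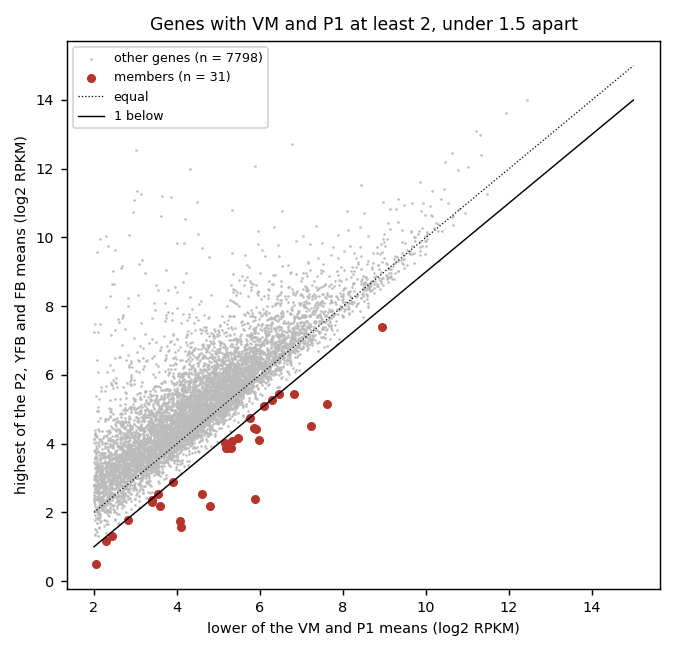
Lower of the vegetative mycelium and stage 1 primordium means against the highest of the 3 late means, in log2 RPKM, for the 7829 models that met the early conditions. Red points are the 31 members, grey points the others, the dotted line marks equal values and the solid line a difference of 1. Many members sit close to the solid line, and 7 lie at least 2 below equality.

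The stage 1 primordium mean minus the mycelium mean ran from -1.13 to 1.00 on the log2 scale, within the limit of the rule. The stage 1 mean was above the mycelium mean in 9 members and below it in 22, with a median difference of -0.33. The largest positive value belonged to model 2646428 and the largest negative one to model 1113897 (SCHCODRAFT_01113897), at 3.92 ± 0.53 in stage 1 primordium against 5.04 ± 0.15 in mycelium (mean ± SD of log2 RPKM, n = 3 each).

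Single libraries mattered. In 20 of the 31 members all 8 late libraries lay below all 6 early ones. Over all 14681 models this held for 1.61%, and since the rule used this contrast nothing is read from the difference. In the other 11 members at least 1 late library reached the lowest early one. Young fruiting body replicate 1 did so in 8 members, replicate 3 in 6 and replicate 2 in 0, while each stage 2 primordium and fruiting body library did so in 1.

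Replicates of 1 stage were also unlike in rank. Stage 1 primordium replicate 1 was the highest of its stage in 22 of the 31 members, against 29.1% of all models, and replicate 3 the lowest in 22, against 37.4% of all models. Young fruiting body replicate 2 was the lowest of its stage in 22 members, against 42.2% of all models, and fruiting body replicate 1 in 25, against 40.9%. The median SD between libraries of a stage was 0.17 in mycelium, 0.61 and 0.69 in the first and second primordium stages, and 0.79 and 0.55 in the young and the full fruiting body, for the members. Over all models it was 0.13, 0.24, 0.43, 0.36 and 0.35 in the same order. The widest ranges within a stage were 6.18 in fruiting body for model 2646428, 5.72 in young fruiting body for model 2621372 and 5.48 in stage 1 primordium for model 2625414. The part of these libraries in the choice of the members was not tested beyond leaving each out.

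**Figure D4:**
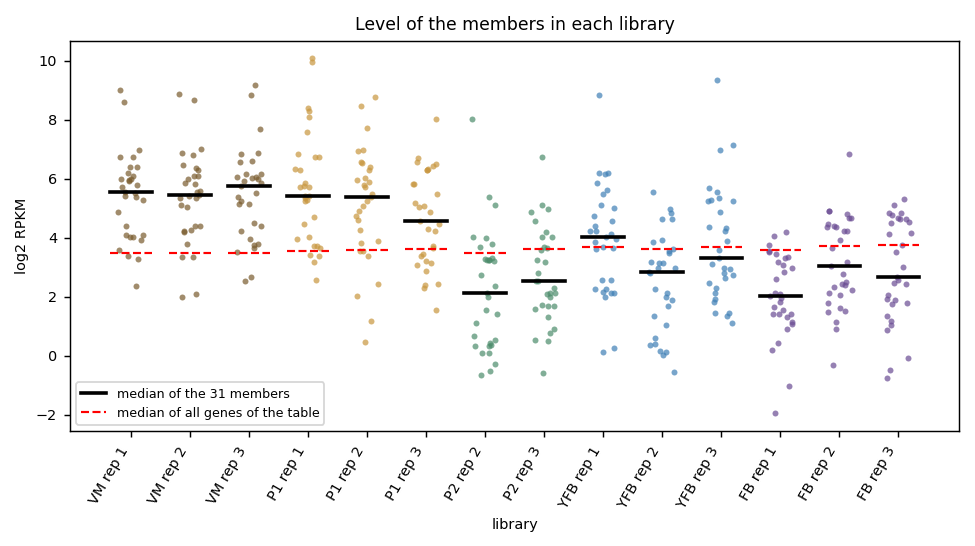
Log2 RPKM of the 31 members in each library. Each point is a member, black bars are the members' median and red dashed bars the median of all 14681 models. The members' median is above the dashed bar in the 6 libraries of mycelium and stage 1 primordium and in young fruiting body replicate 1, and below it in the other 7 late libraries.

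Leaving out 1 library at a time and applying the rule to the others gave 21 to 44 genes. Without stage 1 primordium replicate 1 there were 21, all among the 31. Without its replicate 3 there were 44, of which 27 were among them. Without young fruiting body replicate 2 there were 29, of which 20 were among them, the fewest shared in any of the 14 cases. Stage 2 primordium replicate 2 was at least 1 below the lower early mean in 27 of the 33 genes chosen without it. Replicate 3 was so in 27 of 29. Over the 7829 models that met the early conditions this held for 13.4% and 5.12%. Fruiting body replicates 1, 2 and 3 were so in 25 of 27, 26 of 33 and 24 of 31. The shares of the 7829 models were 11.4%, 2.81% and 2.09%. The 3 young fruiting bodies, in order of number, were so in 16 of 32, 13 of 29 and 13 of 36. Here the shares of the 7829 models were 1.26%, 1.79% and 0.98%. These counts describe how alike the libraries of a stage were in such genes and are no test, since the rule used the early means and the other libraries of the stage.

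The rule sets an upper limit on all 3 late stages but does not say how they differ from each other, so these differences were tested, with edgeR's quasi-likelihood test on unique reads over all 14302 genes that passed a filter on low counts. All 31 members passed the filter, which also used the early libraries. Without TMM scaling the all-gene median moved to 0.53 for young fruiting body against stage 2 primordium, with 1244 of 1417 calls higher in place of 520 of 1246. It moved to 0.69 for fruiting body against stage 2 primordium, with 4081 of 4657 calls higher in place of 1666 of 3474, so changes are given under TMM scaling. Young fruiting body was the highest late stage in 24 of the 31 members, fruiting body in 5 and stage 2 primordium in 2. The lowest was stage 2 primordium in 20, fruiting body in 10 and young fruiting body in 1. Over all 14681 models young fruiting body was highest in 26.9% and stage 2 primordium lowest in 43.5%.

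For young fruiting body against stage 2 primordium, 2 of 31 members rose and 0 fell (6.45%, against 8.71% of all genes called, 3.64% higher and 5.08% lower). Model 2630480 rose, with a log2 change of 5.15 ± 1.16 (SE, adjusted p = 0.027 by edgeR's quasi-likelihood test), at 6.20, 2.98 and 7.15 log2 RPKM in young fruiting body against -0.52 and 1.69 in stage 2 primordium. All 3 young fruiting bodies lay above both stage 2 primordia, which had 2 and 21 unique reads. Model 1113897 rose by 2.45 ± 0.53 (SE, adjusted p = 0.0237 by the same test), at 3.66, 1.69 and 3.31 log2 RPKM in young fruiting body against 0.34 and 0.89 in stage 2 primordium, and these did not overlap either. The log2 change was above 0 in 30 of the 31 members, against 52.7% of all genes, and its median was 0.84, against 0.05 over all genes. Without TMM scaling it was above 0 in 31 members, with a median of 1.28. Leaving out young fruiting body replicate 1, 2 or 3 gave 26, 31 and 25 members above 0, with medians of 0.62, 1.04 and 0.85. The members not called had adjusted p-values from 0.0672 upward, and the share called was near that of all genes.

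Both calls ended without stage 2 primordium replicate 2, the library with the lowest TMM factor. Leaving out either stage 2 library leaves 1, assumed to vary like the other groups. Without replicate 2 the changes were 4.55 (adjusted p = 0.36) for model 2630480 and 2.21 (adjusted p = 0.339) for model 1113897, and edgeR called 0 genes in all, with 1636 at an unadjusted p below 0.05. By limma voom the call of model 2630480 ended (adjusted p = 0.102). Both calls also ended in a fit of the 3 late stages alone (adjusted p = 0.148 each), where edgeR called 0 of all genes and 2644 had an unadjusted p below 0.05. Without fruiting body replicate 1 the number of members called was 4, where 1939 of 14263 genes were called in all. Without stage 2 primordium replicate 3 the members' median change was 1.19, against 0.13 over all genes. Without stage 2 primordium replicate 3 the change of model 2630480 was 6.95, and without young fruiting body replicate 3 it was 4.29. Over 22 alternatives the adjusted p of model 2630480 ran from 9.2e-07 to 0.36 and that of model 1113897 from 0.000186 to 0.339.

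In fruiting body against young fruiting body the reverse was seen for the same model. Model 2630480 fell by 4.64 (SE 0.91, adjusted p = 0.024 by edgeR's quasi-likelihood test), to 2.02, 1.52 and 1.04 log2 RPKM in fruiting body, against 6.20, 2.98 and 7.15 in young fruiting body, with no overlap. It was the only member called of 31 (3.23%, against 3.54% of all genes called, 2.62% higher and 0.923% lower). The log2 change was below 0 in 27 members and above 0 in 4, with a median of -0.50, against 0.01 over all genes, of which 50.8% were above 0. Without TMM scaling it was above 0 in 10 members. Without fruiting body replicate 1, the lowest of its stage in 25 members, it was above 0 in 11 members and the median was -0.28. This comparison shares the young fruiting body libraries with the one before. This call ended without young fruiting body replicate 3 (-3.77, adjusted p = 0.0762) and without any 1 of fruiting body replicates 1, 2 and 3 (-4.96, -4.61 and -4.42, adjusted p = 0.0512, 0.0595 and 0.0532). It also ended by limma voom (adjusted p = 0.0786) and in the fit of the 3 late stages alone (adjusted p = 0.0938). The number of members called was 0 without young fruiting body replicate 3 (0 of 14290 genes called in all), fruiting body replicate 1 (282 of 14263) or fruiting body replicate 3 (434 of 14279). It was 2 without stage 1 primordium replicate 1 (474 of 14294) or young fruiting body replicate 2 (77 of 14299). Without stage 1 primordium replicate 3 it was 3 (597 of 14299). Over the 22 alternatives the adjusted p of model 2630480 ran from 1.16e-07 to 0.0938. Next to it stood model 2640403, at a log2 change of -1.53 ± 0.41, model 1113897, at -1.56 ± 0.43, and model 2625414, at -3.91 ± 1.12, which were not called (SE, adjusted p = 0.0587, 0.0629 and 0.072 by the same test). They were chosen for mention after their values were seen.

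Fruiting body and stage 2 primordium, the pair with most calls over all genes at 24.3%, gave 0 calls among the 31 members by edgeR, with 2 at an unadjusted p below 0.05. DESeq2 and limma voom called 0 too. Without fruiting body replicate 1, 2 members were called, with 3533 of 14263 genes called in all. Without stage 2 primordium replicate 3 the members' median log2 change was 0.45, against 0.20 over all genes. The log2 changes ran from -1.85 to 2.14, with a median of 0.34 against 0.14 over all genes, and were above 0 in 20 members (64.5%, against 56.2% of all genes). Without stage 2 primordium replicate 2 the median was 0.08 against 0.11 over all genes, with 17 members above 0 (against 56.6% of all genes), so the members no longer lay above all genes. Without fruiting body replicate 2 or 3 it was 0.19 or 0.20. A p that misses the threshold does not show that these levels were equal: the standard errors were large for several members, as in model 2646428 with a change of 2.14 ± 1.49 (SE).

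**Figure D5:**
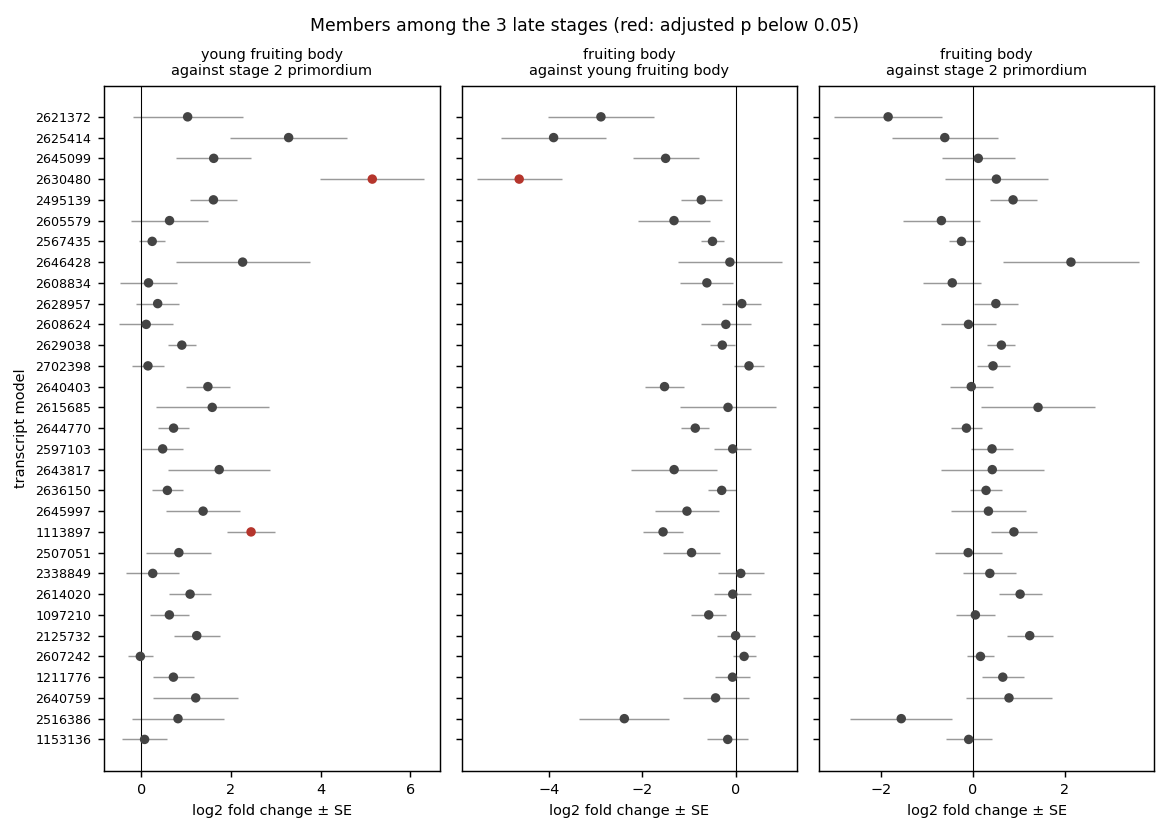
Log2 fold changes of the 31 members (rows, highest early level at the top) among the late stages, with SE bars, from unique reads. Red points have an adjusted p below 0.05. Points are mostly right of 0 for young fruiting body against stage 2 primordium and mostly left of 0 for fruiting body against young fruiting body, with model 2630480 farthest out in both.

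The places of the members were taken from the order of genes in the reference. None of the 30 that could be placed was next to another, and 2 (6.67%) had another member within 5 genes, against 1.89% of 14388 placed models. Those 2 were models 2628957 and 2702398 (SCHCODRAFT_02702111), with 1 gene between them. That gene, model 2628965, and the gene on the other side of model 2702398, model 2735466, also had lower late means, by 1.95 and 1.5 on the log2 scale, but gaps of 0.55 and 0.56. Model 2629038 followed after 23 genes and model 2507051 after 19 more. In all 5 placed members (16.7%) fell on this 1 of 25 sequences, which held 6.12% of the placed models. The genes beside members, 57 in the table, had a median late minus early difference of -0.25, against 0.02 over all models. The neighbours with the largest differences lay in both directions. Model 1107799, beside model 2567435, had a difference of 4.36, model 2636156, beside model 2636150 (SCHCODRAFT_02635863), -3.98, and model 2316544, beside model 2629038, 2.40. On the other side of model 2629038, model 2504684 had -2.16. These were named after their values were seen.

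Transcripts of the members were 383 to 2948 bases long, with a median of 927, against 1299 over all models. Reads with more than 1 placement made up at most 1.71% of the reads of any member, and 28 of the 31 had none, against 84.6% of all models. All 31 also met the rule when RPKM was computed from unique reads with TMM scaling, and no other gene did. This is no independent check. The deposited values already carry a factor per library that ran against the TMM factors, and the members had few reads with more than 1 placement. With total-read RPKM and no scaling factor 41 genes met the rule, of which 24 were among the 31.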

How the data were processed

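Libraries of mRNA were sequenced from 5 developmental stages (14 libraries). The deposited counts are raw unique and total reads per transcript model, 16319 models per library, per the file headers; aligner settings: not given in the sources used here. The authors deposited log2 RPKM for 14681 models, which followed total-read RPKM with a further factor per library. On the log2 scale this factor was highest, 0.86, in stage 2 primordium replicate 2, which had the lowest TMM factor, 0.55. It was lowest, -0.27, in mycelium replicate 2, which had the highest TMM factor, 1.21. The deposited values were thus scaled much as by TMM. R 3.0.2, edgeR 3.4.2 and limma 3.18.13 are named in the submitters' processing notes, with no role given.

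The members and lists were chosen with earlier results of these data known. Stage means are means of the log2 values. Late stages were compared on unique reads with edgeR 4.0.16 in R 4.3.3 (TMM scaling, low-count filter, quasi-likelihood test, all 5 stages in the fit). P-values had Benjamini-Hochberg adjustment, with an adjusted p below 0.05 called. The SE of a log2 change was worked back as its size divided by the square root of this test's F statistic. The procedure was tested on simulated data. Alternatives were DESeq2 1.42.0, limma 3.58.1 voom, other scalings, no filter, total reads, the late stages alone, a replicate block, leaving out each library, and other limits of the rule.

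Genes were named by rule: the 8 highest early levels, the 8 largest gaps, the 3 on each side of the threshold, the called members, and the 3 widest ranges between replicates. Others are said to be chosen after their values were seen, or stand as neighbours, extremes or listed genes. Model IDs from 2000000 upward were matched to RefSeq locus tags by a constant offset of 287, which matched 14009 IDs, against 1180 at the next best offset. This match was inferred, so locus tags and gene order rest on it. No protein or promoter sequence was used here.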

Additional observations from a re-analysis of the deposited data

How the results depend on the processing

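The number of members, 31, was 10 with a gap of at least 1.5 and 7 with a gap of at least 2. Leaving out each library gave 21 to 44. A level floor of 3 gave 27, early means less than 1 apart 28, the log2 of mean RPKM 30 (25 shared), and total-read RPKM with no scaling factor, chosen after seeing the data, 41 (24 shared).

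For young fruiting body against stage 2 primordium, 2 members were called. This was 4 with no scaling factor, 5 by DESeq2, 0 with the late stages alone and 0 with the replicate block, and 0 to 8 leaving out each library. For fruiting body against young fruiting body, 1 was called. This was 5 by DESeq2, 0 by limma voom and 0 with the late stages alone, and 0 to 3 leaving out each library. For fruiting body against stage 2 primordium, 0 were called, against 2 with no scaling factor (4657 of 14302 genes called in all). Leaving out each library outside stage 2 primordium gave 0 to 2, against 2002 to 3993 calls over all genes. The causes were not tested. The members' median changes kept their direction in these alternatives.

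Over all genes, young fruiting body against stage 2 primordium gave 1246 calls by edgeR, 2354 by DESeq2, 779 by limma voom, 201 with the replicate block and 0 with the late stages alone (2644 at an unadjusted p below 0.05). Fruiting body against young fruiting body gave 506, with 1359 by DESeq2, 225 with no scaling factor, 235 with the replicate block and 0 with the late stages alone (1972 unadjusted). Fruiting body against stage 2 primordium gave 3474, and 330 with the late stages alone. Leaving out each library outside stage 2 primordium gave 155 to 1939, 0 to 672 and 2002 to 3993 calls over all genes, in the same order.

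Among the late stages, the deviations of same-numbered libraries correlated by -0.26 to 0.23, with 1 pair above 0.1 (replicate 3 of young fruiting body and stage 2 primordium), so the numbers were not taken to pair samples. Mycelium and stage 1 primordium were not checked. With the replicate block, the changes in young fruiting body against stage 2 primordium were 4.91 for model 2630480 (adjusted p = 0.0536 by edgeR) and 2.33 for model 1113897 (adjusted p = 0.055 by edgeR). By limma voom model 2630480 changed by 4.68 (adjusted p = 0.102) there and by -3.88 (adjusted p = 0.0786) in fruiting body against young fruiting body. Stage 2 primordium had 2 libraries, and model 2630480 had 2 unique reads in one of them, which limits the precision there.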
